A study of Bos taurus with 16 samples.

Results

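Kidney RNA of cattle (Bos taurus) amplified linearly for 1 round (round 1) was compared with unamplified total kidney RNA (round 0). The members are the 4 arrays whose labels give round 1 and the 4 whose labels give round 0, 8 of the 16 arrays of the series. At each of these rounds there were 2 kidney RNAs, called replicates 1 and K, and each was hybridised on 2 arrays with the dyes Cy3 and Cy5 exchanged. Every array also carried the same reference standard RNA, which had itself undergone 2 rounds of amplification per the labels, so round 0 sets unamplified kidney against amplified reference and round 1 sets amplified kidney against it. All RNAs were isolated with Trizol and copied into cDNA with the reverse transcriptase Superscript III, and amino-allyl dUTP was built in for coupling to the dyes. The breed, age and sex of the animals were not used here. The labels name the sources Kidney 1 and Kidney K at both rounds, but do not say whether these are animals or preparations. P-values therefore measure only the spread between the 2 RNAs of a round, taken over all 4 rounds of the series. That spread may be technical.

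Linear amplification copies the polyadenylated RNA of a small sample. First-strand cDNA is primed with oligo dT that carries a T7 promoter, a second strand is made, and T7 RNA polymerase transcribes many antisense copies from each template. It is used where a sample, such as a single embryo, holds too little RNA to label directly. The comparison asks how far the ratios of single genes in kidney differ once the RNA has passed through such a step. Kidney is a useful tissue for this because its tubule segments, glomeruli and vessels each express well-known genes at a high level. In RNA of a whole organ, fewer cells of a type and less RNA per cell cannot be told apart.

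The array was a custom print of bovine cDNA clones, each spotted as a duplicate. A spotted clone is called a feature here, and 1 gene may have several. Values below are log2 ratios, kidney over reference, after each array was centred on its median and averaged over duplicate spots and over the dye swap of an RNA. A difference is round 1 minus round 0 on that scale. The deposited values do not state which dye is the numerator. Cy5 over Cy3 was taken as likely because it puts kidney genes above the reference, and with the opposite choice every sign below would turn. Between 14182 and 15369 of the 16896 spots of a round 1 array had a ratio, against 14242 to 15947 on a round 0 array. Every cell of the 4 round 0 arrays carries 3 decimals, whereas on the round 1 arrays 83.7% to 88.2% do, so a difference in processing and the difference between rounds cannot be told apart.

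Arrays of round 1 agreed less well than those of round 0. The dye-swapped arrays of 1 RNA correlated over features at 0.245 (replicate K) and 0.586 (replicate 1) at round 1, against 0.664 and 0.678 at round 0. The Cy3 array of round 1 replicate K had an SD of 1.59 over features, against 1.08 to 1.2 on the other round 1 arrays. No fit below left out only that array. Arrays of different RNAs in the same dye correlated at 0.670 and 0.708 at round 1 and at 0.789 and 0.819 at round 0. The median SD between the 2 RNAs of a round was 0.26 at round 1 and 0.15 at round 0. All these arrays share the reference RNA, so the coefficients describe agreement and carry no test.

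The mean ratios of the rounds correlated at 0.583 over 5537 features, as the plot of round 1 against round 0 ratios shows. The SD of the means over features was 0.99 at round 1 and 1.05 at round 0, so the overall width of the ratios was similar. The slope of round 1 on round 0 was 0.554. For 4204 features (75.9%) the difference was within 1 in size, that is within a doubling or a halving, and for 229 (4.1%) it exceeded 2. The median difference was -0.03 and the median size of the difference 0.56.

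**Figure D1:**
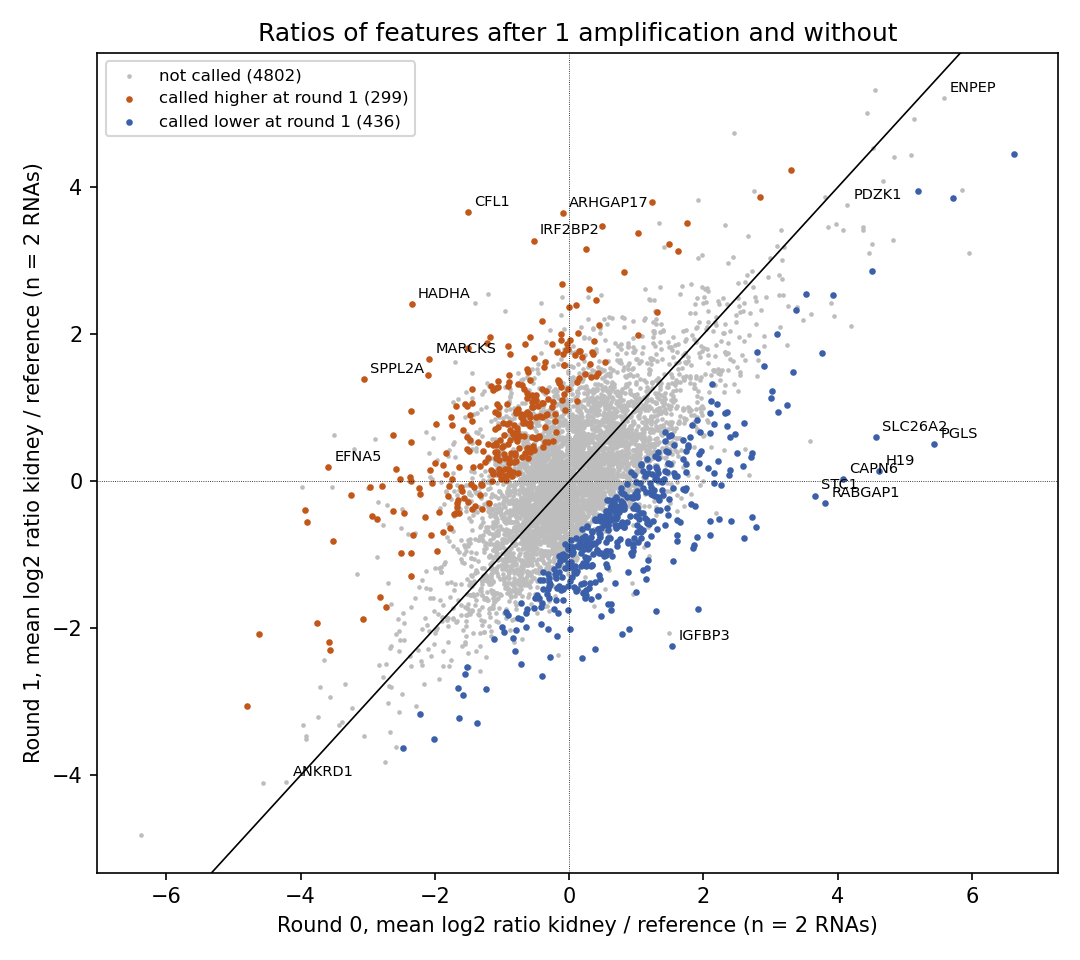
Mean log2 ratio of kidney over reference at round 1 (vertical axis) against round 0 (horizontal axis) for 5537 features, each the mean of 2 RNAs. The line marks equal ratios. CFL1 and HADHA lie far above it, PGLS and H19 far below it, and ENPEP, PDZK1 and ANKRD1 lie near it.

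With limma, 735 of 5537 features passed an adjusted p of 0.05, which is 13.3% of those tested. Of these, 299 (5.40%) were higher and 436 (7.87%) lower at round 1. Without centring the arrays the median of all differences was -1.04, and 39 were called higher and 1829 lower, so changes here are relative to the median feature. These passing features are called below. The test takes its spread from all 4 rounds of the series. With rounds 1 and 0 fitted alone it called 2 features, CFL1 and H19, each at an adjusted p of 0.0413. Leaving out a round 1 RNA gave 320 (replicate 1 out) or 112 (replicate K out), and leaving out a round 0 RNA gave 191 (replicate 1 out) or 150 (replicate K out). Dropping only the Cy3 array of round 1 replicate 1 gave 346. It was 207 on the Cy5 arrays alone and 1009 on the Cy3 arrays alone.

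Features called higher had mostly stood below the reference at round 0, and those called lower had mostly stood above it. Of the 299 called higher, 246 lay above the reference at round 1 and 35 at round 0, with median ratios of 0.72 and -0.88. Of the 436 called lower, 90 lay above it at round 1 and 357 at round 0, with medians of -0.63 and 0.70. The sign of the ratio differed between the rounds in 478 called features (65.0%), beside 1829 (33.0%) of all features. Called features are chosen by their difference, so this contrast is a description. The difference had the same sign in both replicates for all 735 called features, in the Cy5 arrays alone for 688 of the 696 with a value there, and in the Cy3 arrays alone for 692 of 695. Such agreement is largely built into the choice of called features. Over all tested features the differences of replicates 1 and K correlated at 0.537. Those of the Cy5 and Cy3 arrays correlated at 0.329 over the 4858 features that had both. Among 4858 features measured on all 8 arrays, the 4 arrays of round 1 lay wholly apart from the 4 of round 0 in 1071 (22.0%).

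Cofilin, CFL1, which severs actin filaments, had the largest increase. Its ratio was 3.68 and 3.65 in the 2 round 1 RNAs and -1.47 and -1.56 in the 2 round 0 RNAs. On single arrays it was 3.61, 3.74, 4.35 and 2.94 at round 1, against -1.29, -1.64, -1.33 and -1.79 at round 0. No round 1 array came near the range of the round 0 arrays, and both dyes gave a difference above 5 (5.29 with kidney in Cy5 and 5.06 in Cy3). The fitted difference was 5.17 ± 0.21 (SE, n = 2 RNAs each, adjusted p = 0.000734).

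Enzymes of fatty acid and sugar use were among the other leading increases. HADHA, the alpha subunit of the mitochondrial trifunctional protein, stood at 2.64 and 2.18 at round 1 and at -1.96 and -2.73 at round 0. ECI2, an enoyl-CoA isomerase of the same pathway, stood at 1.57 and 1.34 at round 1 and at -2.19 and -2.01 at round 0. GALT, which converts galactose 1-phosphate, stood at -0.75 and -0.03 at round 1 and at -4.18 and -3.68 at round 0, so it was below the reference at both rounds. The groups were far apart for all 3, with differences of 4.75, 3.55 and 3.54. HADHA had an adjusted p of 0.0150, and of 0.0546 to 0.0759 without 1 or the other round 1 RNA or without replicate K of round 0. The round 0, replicate 1 arrays of HADHA were far apart, at 0.56 with kidney in Cy5 and -4.47 in Cy3. GALT lacked a value on both Cy5 arrays of round 0.

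Genes of the cell surface, matrix and cytoskeleton formed another part of the increases. The ephrin ligand EFNA5 was at 0.00 and 0.40 at round 1 and at -3.33 and -3.84 at round 0, and the collagen-binding proteoglycan FMOD was at -0.52 and -0.57 against -3.91 and -3.89. Both ended near the reference at round 1 after standing far below it at round 0. MARCKS, an actin-binding substrate of protein kinase C, was at 0.76 and 2.57 at round 1 and at -2.30 and -1.86 at round 0. The round 1 RNAs of MARCKS differed by more than 1.5 on the log2 scale, and its adjusted p of 0.0212 was 0.0661 to 0.087 without replicate K of round 1 or without either RNA of round 0. ARHGAP17 was at 4.01 and 3.28 at round 1 and at -0.32 and 0.13 at round 0. It did not pass without any 1 of the 4 RNAs (adjusted p = 0.0639 to 0.0772), and both Cy5 arrays of round 1 lacked it.

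The rest of the 15 largest increases had varied roles. The intramembrane protease SPPL2A was at 1.08 and 1.70 at round 1 and at -2.36 and -3.75 at round 0, and the corepressor IRF2BP2 at 2.64 and 3.90 against -0.62 and -0.43. INCENP, of the chromosomal passenger complex, was at 2.46 and 1.17 at round 1 and at -1.62 and -1.39 at round 0. The RNA exonuclease REXO5 rose by 3.31, WDR41 by 3.25 and the locus LOC508879 by 3.14. The deubiquitinase USP19 was at 1.61 and 2.15 at round 1 and at -0.86 and -1.60 at round 0, a difference of 3.11 ± 0.34 (SE, adjusted p = 0.00756). In each of these the 2 RNAs of round 1 lay above both RNAs of round 0, which the choice of the 15 required. Over all 5537 tested features, the RNAs of the rounds did not overlap in 3546 (64%).

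PGLS, the lactonase of the pentose phosphate pathway, had the largest decrease. Its ratio was 0.58 and 0.44 in the round 1 RNAs and 5.15 and 5.74 in the round 0 RNAs. On single arrays it was 0.74, 0.43, 0.94 and -0.06 at round 1 and 5.44, 4.86, 5.27 and 6.21 at round 0. A feature that lay among the most kidney-biased ones without amplification was thus close to the reference after it, on each array. The difference was -4.93 ± 0.26 (SE, adjusted p = 0.00122).

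H19, an imprinted noncoding RNA, showed the smallest spread of the large decreases. It stood at 0.15 and 0.12 at round 1 and at 4.62 and 4.63 at round 0, a difference of -4.49 ± 0.20 (adjusted p = 0.000785). RABGAP1, a GTPase-activating protein for Rab6, was at -0.71 and 0.12 at round 1 and at 3.87 and 3.76 at round 0. CAPN6, a calpain relative that lacks protease activity, was at -0.23 and 0.29 at round 1 and at 3.99 and 4.16 at round 0. All 3 were near the reference at round 1 and near 4 or above at round 0.

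Secreted proteins and a transporter were next among the decreases. The sulfate transporter SLC26A2 was at -0.35 and 1.55 at round 1 and at 4.26 and 4.88 at round 0. The glycoprotein hormone STC1 was at -1.21 and 0.82 at round 1 and at 4.29 and 3.03 at round 0. IGFBP3, the main circulating carrier of insulin-like growth factors, was at -1.67 and -2.81 at round 1 and at 1.73 and 1.34 at round 0. The RNAs of round 1 differed widely in SLC26A2 and STC1, whose adjusted p was 0.0283 in both, whereas IGFBP3 had 0.00756. The C-type lectin CLEC18C was at -1.59 and -1.88 at round 1 and at 0.95 and 2.88 at round 0.

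The remaining decreases included transcription factors, stress proteins and cytoskeletal proteins. FOSB, a subunit of AP-1, was at -0.48 and -0.77 at round 1 and at 2.68 and 2.90 at round 0. SMTN, smoothelin, a protein of contractile smooth muscle, was at -1.71 and -1.82 at round 1 and at 1.30 and 1.30 at round 0. The chaperone HSPB1 was at -2.28 and -1.73 at round 1 and at 0.51 and 1.27 at round 0. These crossed from above the reference without amplification to below it with amplification. The p53 target PERP fell by 3.37, PPP1R35, a regulatory subunit of protein phosphatase 1, by 3.21, CCDC186 by 2.95 and TCF7L1, a nuclear effector of Wnt signalling, by 2.86.

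**Figure D2:**
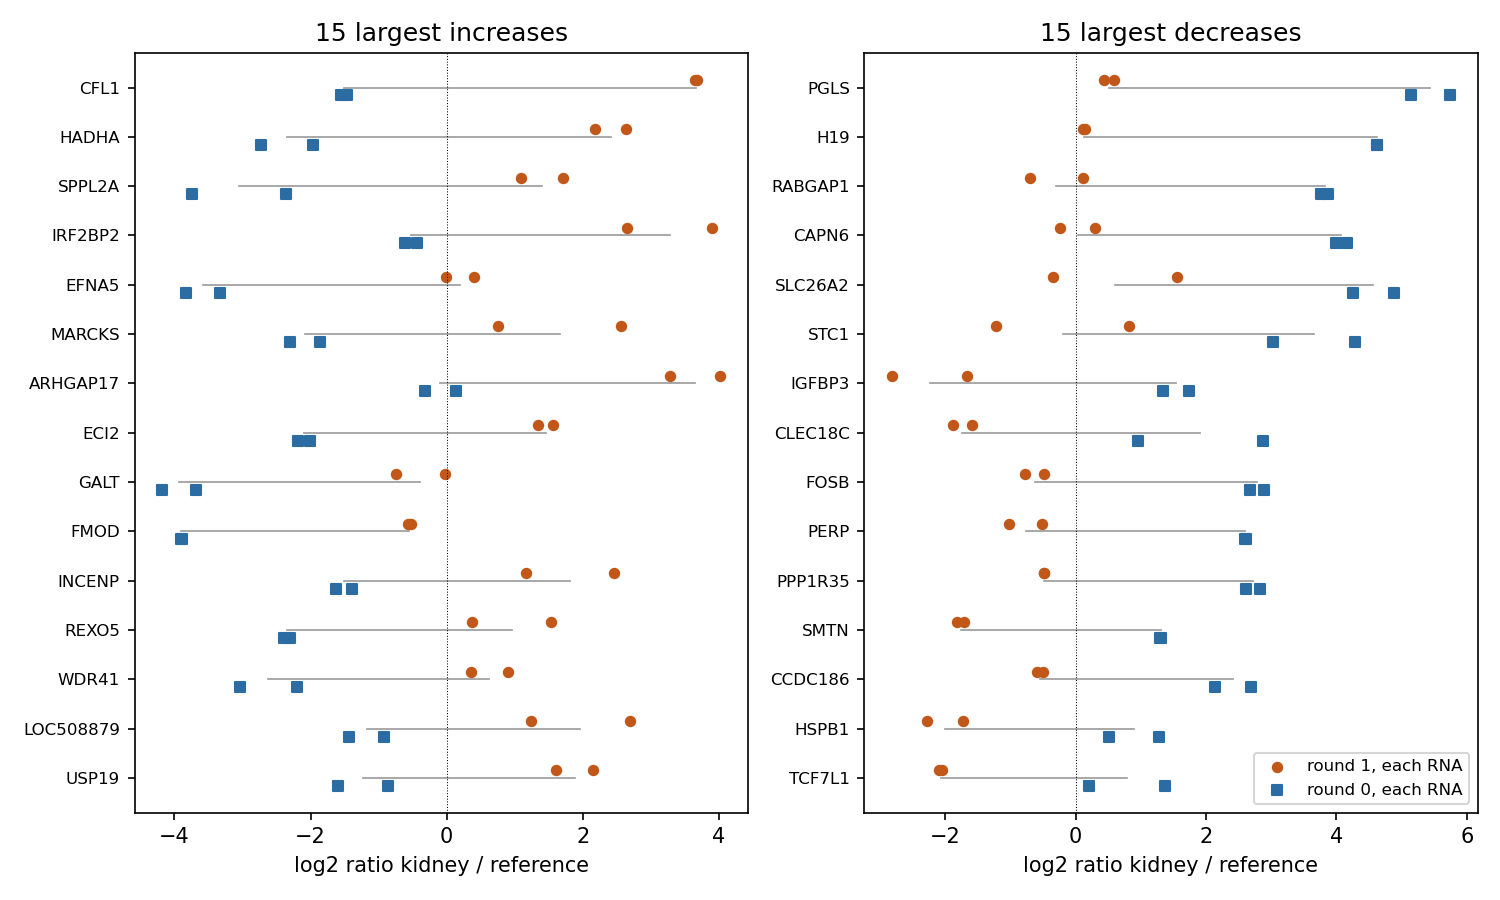
Log2 ratio of kidney over reference (horizontal axes) in each round 1 RNA (circles) and each round 0 RNA (squares) for the 15 largest increases (left) and decreases (right) among called features. Grey lines join the means of the rounds. The RNAs of the rounds do not overlap in any row, which the choice of rows required, and the round 1 values of SLC26A2, STC1 and MARCKS are the most spread.

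Of these 30 features, 22 were measured on all 8 arrays, and in 29 the arrays of round 1 lay apart from those of round 0, the exception being LOC508879. Leaving out 1 RNA lowered the number still called to 25 (replicate 1 of round 1 out), 21 (replicate K of round 1 out) and 22 (either RNA of round 0 out). Dropping only the Cy3 array of round 1 replicate 1 left 28. The 18 that passed in each of these fits were CFL1, EFNA5, ECI2, GALT, FMOD, WDR41 and USP19 upward, and PGLS, H19, RABGAP1, CAPN6, IGFBP3, FOSB, PERP, PPP1R35, SMTN, CCDC186 and HSPB1 downward.

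Another feature of the same gene often behaved otherwise. Of the 30 leading genes, 14 had other tested features, 19 in all, of which 14 were not called, 3 had a call matching the leading feature and 2 a call against it. In 12 of the 19 the difference had the sign of the leading feature, as in the second GALT feature (1.02, not called). The other PGLS feature was at 0.51 and 1.23 at round 1 and at -0.47 and -0.58 at round 0, a difference of 1.39 (adjusted p = 0.0680) against the -4.93 of the first. The other ECI2 feature was at 1.77 and 1.72 at round 1 and at 1.57 and 1.88 at round 0, so the ECI2 features agreed at round 1 and stood almost 4 log2 units apart at round 0. The other ARHGAP17 feature was at -2.07 and -2.49 at round 1 and at 0.44 and 0.34 at round 0 and was called lower, while the leading one was called higher.

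HSPB1 had 3 further features, with differences of 0.69, 0.15 and -0.69, none of them called. STC1 had 2, with differences of 0.82 and 0.34, not called either. The second features of IRF2BP2 and MARCKS differed by 0.18 and 0.57 and that of RABGAP1 by -0.44. A second CAPN6 feature was high at both rounds, at 3.61 and 2.61 at round 1 and at 5.75 and 6.15 at round 0, and its difference of -2.85 had an adjusted p of 0.0781.

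Over all genes the same held. Of 4360 genes with 1 symbol, 905 had several tested features. Between 2 features of a gene the ratios correlated at 0.437 at round 1 and at 0.590 at round 0, whereas the differences between rounds correlated at 0.183. The sign of the difference was the same in 560 of these 905 pairs (61.9%). Of the 246 multi-feature genes with any call, 212 had 1 called feature only. Clones of a gene can overlap and share the RNAs and the reference, so these coefficients are descriptions over genes.

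In 7 genes several features were called higher and none lower, and in 18 several were called lower and none higher. CD44, the hyaluronan receptor, led the higher ones. Its features were at -0.15 and -0.20 at round 1 against -3.18 and -3.33 at round 0, and at -2.10 and -2.27 at round 1 against -3.32 and -3.82 at round 0. Both lay below the reference in the mean of each RNA and were nearer to it at round 1. The dye-swapped arrays of round 1 replicate K were far apart, however. With kidney in Cy5 and in Cy3, the first feature was at -1.85 and 1.44 there, and the second at -0.70 and -3.85.

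PDPN, podoplanin, a surface glycoprotein of podocytes and lymphatic vessels, had differences of 2.71 and 1.26. The proliferation-associated PA2G4 had 2.52 and 1.53, with another feature at 0.04 that was not called. FKBP1A, the prolyl isomerase that binds FK506, had 2.05 and 1.78. The kinase MAP4K4 had 1.63 and 1.46, the asparaginyl-tRNA synthetase NARS1 1.98 and 1.05, and the inositol phosphatase INPP5A 1.58 and 1.40, with another INPP5A feature at 0.27 that was not called. Each of these 7 genes thus has more than 1 called feature.

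H19 led the genes with several decreases. Beside the feature above, a second one was at 2.63 and 2.44 at round 1 and at 3.93 and 3.93 at round 0, a difference of -1.40. IGFBP3 had a second called feature at -0.86 and another at -1.03 that was not called (adjusted p = 0.115). TST, the mitochondrial rhodanese that detoxifies cyanide, had -2.83 and -1.06. The cilia-associated CFAP36 had -1.83 and -1.73, the splicing factor SRSF7 -1.90 and -1.13, and the RNA-binding HNRNPA2B1 -1.72 and -1.22.

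SPP1, osteopontin, a glycoprotein secreted by tubule cells, had -1.37 and -1.19. RCAN1, an inhibitor of calcineurin, had -1.32 and -1.16, and CFLAR, an inhibitor of caspase-8, -1.28 and -1.18. PEG3, an imprinted zinc-finger gene, had 7 tested features. Those called were at -1.95 and -1.33, and the other 5 lay between -0.75 and 1.30 and were not called.

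The 9 genes with features called in both directions were ANXA8L1, ARHGAP17, DUSP16, DYNC1H1, MAP2K2, RBMS2, SURF4, TCF12 and TCF7L1. MAP2K2, the kinase that activates ERK, had 1 feature at 1.90 and others at -2.24 and -1.70. SURF4, a cargo receptor of the endoplasmic reticulum, had 1.25 and -2.73. ANXA8L1, an annexin, had 2.55, 2.36 and -1.01. A statement on any of these genes depends on which clone is read.

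**Figure D3:**
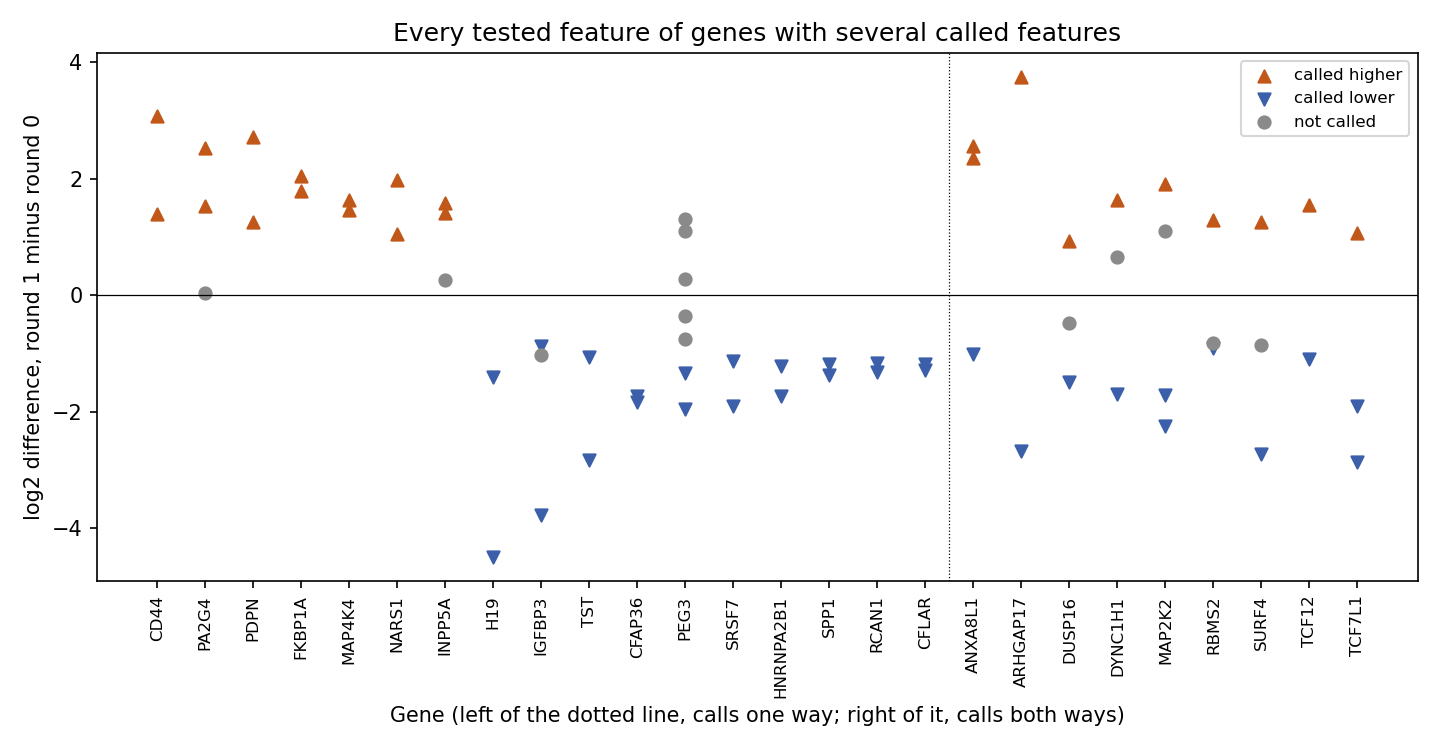
Log2 difference, round 1 minus round 0 (vertical axis), of every tested feature of 17 genes named for several calls in 1 direction and of the 9 genes with calls in both. Upward triangles were called higher, downward triangles lower, and circles were not called. PEG3 spans from -1.95 to 1.30, and ARHGAP17 from -2.67 to 3.74.

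Many features kept their ratio through the amplification. For 1358 features (24.5%) the 95% interval of the difference lay within 1 in either direction, and the median width of that interval was 1.48. Among them ENPEP, aminopeptidase A of the brush border, had the ratio farthest from the reference at round 0. It stood at 5.30 and 5.14 at round 1 and at 5.60 and 5.55 at round 0, with an interval of the difference from -0.93 to 0.22. By dye, however, its difference was 0.47 on Cy5 arrays and -1.19 on Cy3 arrays.

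PDZK1, a scaffold of brush border transporters, stood at 3.71 and 3.81 at round 1 and at 3.98 and 4.30 at round 0. TEK, the angiopoietin receptor of endothelium, stood at 3.64 and 4.09 at round 1 and at 3.90 and 3.72 at round 0. Their intervals ran from -0.90 to 0.14 and from -0.71 to 0.81. PDZK1 had the same split by dye as ENPEP, with a difference of 0.39 on Cy5 arrays and -1.14 on Cy3 arrays. CDH1, the cadherin of epithelia, AHCYL2, a relative of adenosylhomocysteinase, and PPM1K, a mitochondrial phosphatase, differed by -0.16, 0.26 and 0.05 and stood near 3 at both rounds. A second CDH1 feature was called lower, however, at -0.02 and 0.19 at round 1 and at 2.72 and 2.04 at round 0.

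On the low side, the muscle ankyrin repeat protein ANKRD1 stood at -4.19 and -4.00 at round 1 and at -4.17 and -4.26 at round 0. Both features of LGALS3, galectin-3, were kept, with differences of 0.45 and 0.12 and ratios between -3.17 and -4.00. HSD3B1, a steroid dehydrogenase, stood at -2.87 and -3.31 at round 1 and at -3.23 and -3.23 at round 0. In these the RNAs of the rounds were close to each other or overlapped.

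The measured genes were also counted in lists by cell type and function. The shares over all 5537 features, to set beside those of a list, were 13.3% called, 5.40% higher and 7.87% lower. At an unadjusted p under 0.05 in limma there were 1760 of the 5537, both directions together, to set beside the unadjusted counts. Beside the called features of a list, the unadjusted counts are those at an unadjusted p under 0.05 in limma, and the left-out ranges are the lowest and highest numbers called when 1 of the 4 RNAs or the Cy3 array of round 1 replicate 1 was left out. Of 183 genes with a called feature in any list, 83 had several tested features and 75 had a tested feature that was not called, so a value given for a gene below is that of the feature described.

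Markers of the nephron stayed mostly above the reference at round 1. All 13 proximal tubule features lay above it at round 1 and 11 at round 0; the side of the reference is no finding, since such genes set the direction of the ratio. Of these 13, 0 were called higher and 2 lower (15.4% called, beside 13.3% of all features), and the median difference was -0.36, against -0.03 over all features. At unadjusted p under 0.05 in limma, 2 were higher and 3 lower. Under quantile normalization the median was 0.06.

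GPX3, the secreted glutathione peroxidase made in the proximal tubule, stood at 4.78 and 4.13 at round 1 and at 6.32 and 6.93 at round 0 (difference -2.17, adjusted p = 0.0461). One MME (neprilysin) feature fell by 1.05, at 2.25 and 2.41 at round 1 and 3.29 and 3.47 at round 0, and a second was at 0.73 and 2.15 against 2.15 and 2.07 and was not called. Neither passed in any of the fits that left out 1 RNA or the Cy3 array of round 1 replicate 1.

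Among the proximal tubule features that did not pass, some were close in level at both rounds and others differed by about 1 on the log2 scale. The water channel AQP1 stood at 5.05 and 4.96 at round 1 and at 4.44 and 4.43 at round 0, and the peptidase DPP4 at 5.11 and 3.97 against 4.75 and 4.31. ANPEP, aminopeptidase N, stood at 3.89 and 3.10 at round 1 and at 4.14 and 3.82 at round 0. DAB2, an adaptor of receptor endocytosis, had a difference of -1.05 (adjusted p = 0.0537), SLC27A2, a fatty acid transporter, 0.99 (0.0738), and the folate receptor FOLR1 1.20 (0.180). The features of GGT1, a gamma-glutamyl transferase of the brush border, differed by 1.12 (0.104) and 0.98 (0.388).

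In the distal nephron list 15 of 20 features lay above the reference at each round, and 0 were called higher and 3 lower (15.0%, median difference -0.27). At unadjusted p under 0.05, 4 were higher and 5 lower. CA12, a membrane carbonic anhydrase, had a feature at -0.74 and 0.12 at round 1 and at 1.75 and 1.89 at round 0, which was called lower by 2.13. Its other feature was at 1.42 and 1.03 at round 1 and at -0.30 and -0.06 at round 0 and was not called (1.41, adjusted p = 0.0866). The other calls were those of SPP1. Here the left-out ranges were 0 higher and 0 to 3 lower.

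The features of other distal genes also parted. For GATA3, a transcription factor of the collecting duct lineage, one feature stood at 5.24 and 4.61 at round 1 and at 4.62 and 5.66 at round 0. A second stood at 0.03 and 0.84 at round 1 and at 2.30 and 2.94 at round 0. AQP3, the basolateral water channel, was alike in 3 features at round 1, at 2.47 to 2.98, and at 0.52 to 3.04 at round 0. The sodium channel subunits SCNN1A and SCNN1G differed by -0.92 and 1.10, and S100G, a calcium-binding protein, by -0.65 and -0.32, without a call.

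Among 10 glomerular and endothelial features, 1 was called higher and 2 lower (30.0%, beside 13.3% of all features), with a median difference of 0.35. PLVAP, of the diaphragms of fenestrated endothelium, stood at 3.20 and 3.13 at round 1 and at 0.32 and 0.17 at round 0. CDH5, the cadherin of endothelial junctions, stood at 0.07 and -0.27 at round 1 and at 1.72 and 1.67 at round 0. One PECAM1 feature fell by 1.85, and the second stood at 1.76 and 1.77 at round 1 and at 0.88 and 1.04 at round 0 without a call. Endothelial genes thus differed in both directions, while KDR, the VEGF receptor, differed by -0.65 and 0.10 and TEK by 0.05. For glomerular and endothelial genes the unadjusted counts were 2 higher and 2 lower, and the left-out ranges 0 to 1 higher and 0 to 1 lower.

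**Figure D4:**
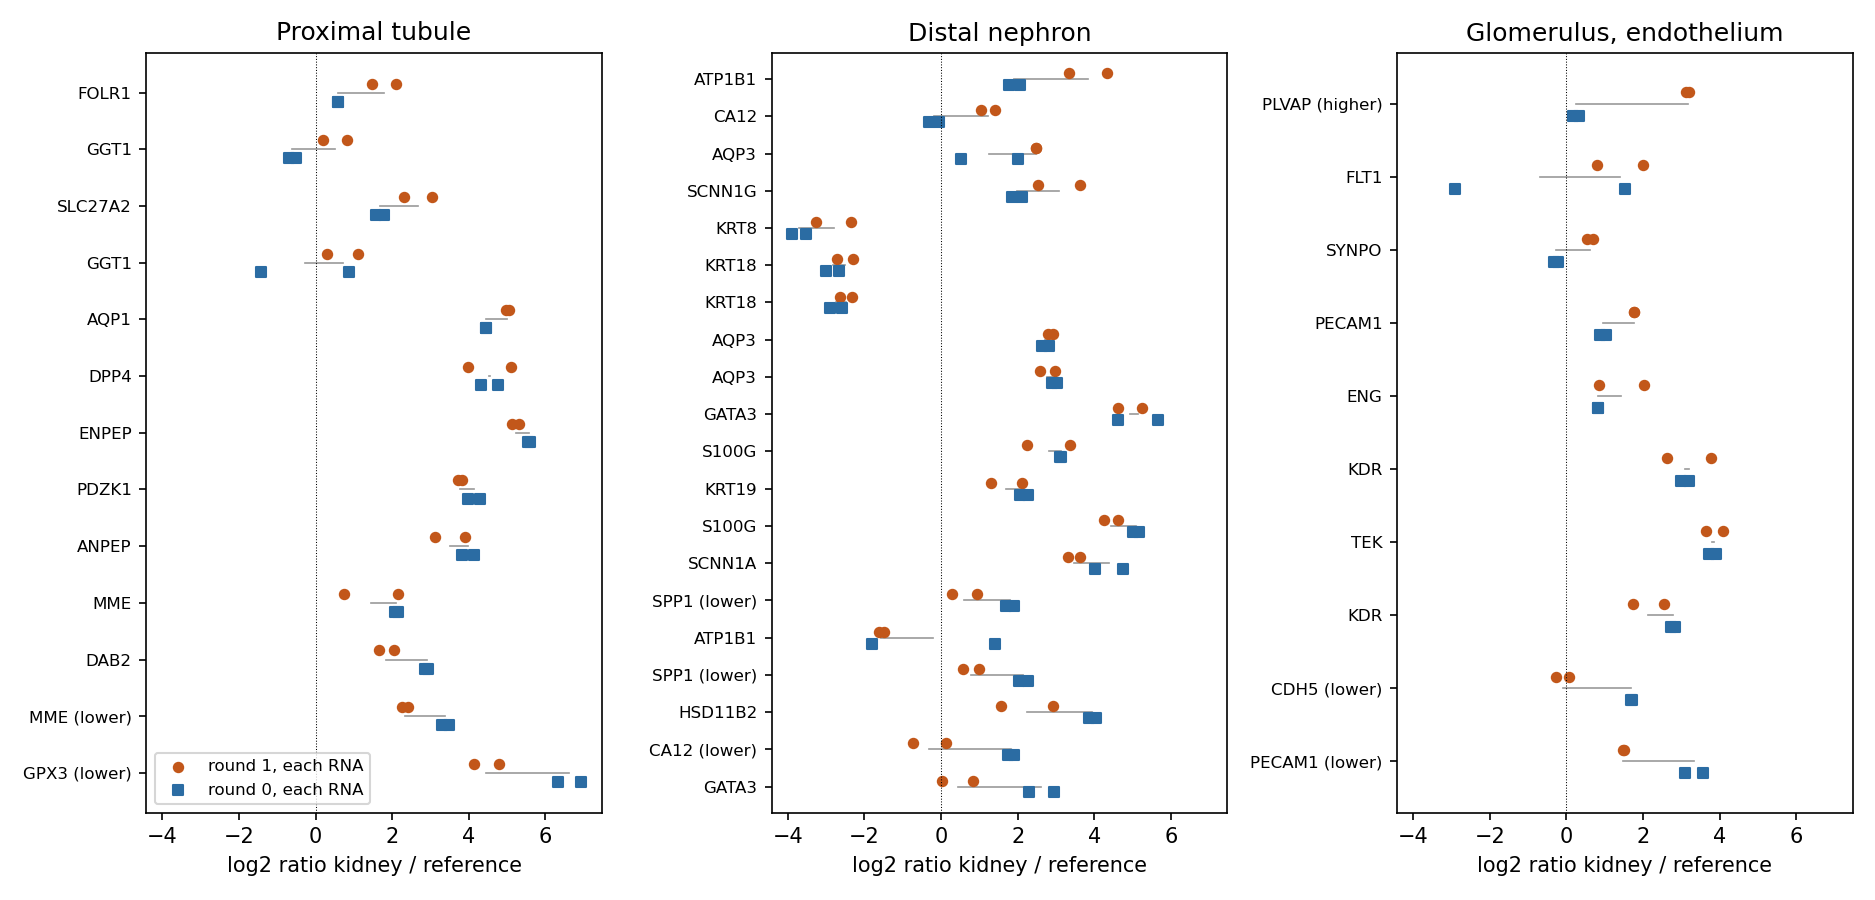
Log2 ratio of kidney over reference (horizontal axes) of every tested feature in 3 kidney marker lists, in each round 1 RNA (circles) and each round 0 RNA (squares), ordered by the difference. Called features carry the direction in brackets. ENPEP, DPP4 and AQP1 lie above 3 in all 4 RNAs, and GPX3, in the last row of the left panel, has the largest called decrease of its list.

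Markers of other cells that a kidney sample could hold were also counted. The list of blood markers had 0 tested features, so red cells could not be assessed. Of 23 immune features, 2 were called higher and 0 lower (8.7%, median difference 0.22), namely IGHM (1.07), the heavy chain of IgM, and IKZF3 (1.72), a lymphocyte transcription factor. At unadjusted p under 0.05, 6 were higher and 2 lower. By dye, IGHM differed by 0.41 on Cy5 arrays and 1.74 on Cy3 arrays. The called IKZF3 feature differed by 0.23 on Cy5 arrays and lacked a value on the Cy3 array of round 1 replicate 1. A second IKZF3 feature differed by -3.03 (adjusted p = 0.0571). The median ratio over immune features was -0.21 and 0.12 in the round 1 RNAs and -0.20 and -0.57 in the round 0 RNAs. For immune genes the left-out ranges were 0 to 3 higher and 0 lower.

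Of 28 features of stroma and muscle, 5 were called higher and 3 lower (28.6%, beside 13.3% of all features, median difference -0.13). COL6A1, a chain of collagen VI, stood at 0.91 and 1.15 at round 1 and at -1.53 and -1.84 at round 0, and FMOD is given above. The actin-binding TAGLN rose by 1.33 in 1 of 2 features, and the myosin light chain MYL9 by 1.37. MGP, an inhibitor of calcification, fell by 1.87, at 3.85 and 3.85 at round 1 and 5.81 and 5.63 at round 0. Fibronectin FN1 and collagen COL12A1 each fell by 1.15 in 1 feature. The median ratio over the 28 features was -0.49 and -0.63 in the round 1 RNAs and -0.66 and -0.85 in the round 0 RNAs. These medians were higher at round 1, whereas the median of the differences of single features was -0.13. The part of other cell types in the differences was not tested. For stroma and muscle the unadjusted counts were 8 higher and 8 lower, and the left-out ranges 1 to 4 higher and 0 to 3 lower.

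Genes of trophoblast and placenta had 5 higher and 8 lower calls among 53 features (24.5%, beside 13.3% of all features, median difference 0.18). Of the 8 lower, 6 were CAPN6, PHLDA2 and both called features of H19 and of PEG3. The pregnancy-associated glycoprotein PAG11 stood at 0.75 and 1.35 at round 1 and at -0.79 and -1.35 at round 0, and PAG7 and the prolactin-related PRP1 and PRP6 rose by 1.42, 1.49 and 1.27. The other PAG11 features differed by 1.09, 0.50 and -0.67 without a call. Among these placental proteins PAG12 fell, by 1.38. PAG and PRP genes form families of close copies, and 1 clone can capture cDNA of several members. For trophoblast and placenta the unadjusted counts were 11 higher and 12 lower, and the left-out ranges 1 to 5 higher and 2 to 4 lower.

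Imprinted genes and the IGF axis were called lower more often than higher, with 9 features lower and 1 higher among 40 (25.0%). Of all features 13.3% were called, 7.87% lower and 5.40% higher. The median difference of the list was -0.36. Those lower were H19 and PEG3 in 2 features each, IGFBP3 in 2, PHLDA2 (-2.04), an imprinted regulator of placental growth, IGFBP7 (-1.69) and the receptor IGF2R (-0.87). The one higher was an IGF2 feature, at 1.17 and 0.64 at round 1 and at -1.54 and -1.40 at round 0. Other IGF2 features differed by -0.90 and -1.30 without a call. Fits that left out 1 RNA or that Cy3 array gave 2 to 5 calls lower and 1 or 2 higher. On Cy5 arrays alone 2 were lower and 1 higher, and on Cy3 arrays alone 7 were lower and 1 higher. Over all features, Cy5 arrays alone gave 103 lower and 104 higher of 4818. Cy3 arrays alone gave 603 lower and 406 higher of 4936.

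Energy metabolism was uneven between pathways. In glycolysis, the pentose phosphate pathway and sugar metabolism, 4 of 45 features were higher and 6 lower (22.2%, median difference 0.12). PKM, the last enzyme of glycolysis, stood at 0.18 and -0.37 at round 1 and at -2.17 and -2.30 at round 0, and the glucose transporter SLC2A3 at -2.29 and -2.68 against -0.71 and -0.72. In fatty acid uptake and oxidation, 2 of 33 were higher (HADHA and ECI2) and 3 lower (15.2%, median difference -0.36). The peroxisomal thiolase ACAA1 fell by 2.18, the fatty acid-binding FABP5 by 1.34 and the acyl-CoA synthetase ACSL5 by 0.97. For sugar metabolism the unadjusted counts were 10 higher and 10 lower, and the left-out ranges 2 to 4 higher and 2 to 4 lower. For fatty acid genes the unadjusted counts were 4 higher and 12 lower, and the left-out ranges 1 to 2 higher and 0 to 1 lower.

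Mitochondrial respiration had few calls. No feature of the 24 of the tricarboxylic acid cycle passed in limma, with 4 higher and 3 lower at unadjusted p under 0.05 and a median difference of -0.05. Nearest to passing were the malate dehydrogenase MDH1 (-0.68, adjusted p = 0.0692) and the citrate synthase CS (1.25, 0.0710). Of 53 features of oxidative phosphorylation, 1 was higher and 2 lower (5.7%, median difference 0.02). UQCRC1, of complex III, rose by 1.27, the copper chaperone COX17 fell by 0.90 and NDUFA4L2 fell by 1.99. For oxidative phosphorylation the unadjusted counts were 3 higher and 10 lower, and the left-out ranges 0 to 1 higher and 0 to 1 lower.

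Ribosomal proteins also had few calls. Of 56 cytosolic ribosomal protein features 3 were higher and 2 lower (8.9%), with a median difference of -0.37 and differences within 1.5 in size throughout. Called or not, the difference was above 0 in 10 of the 56, beside 2695 of all 5537 features. RPS10 stood at 0.73 and 0.07 at round 1 and at -1.18 and -0.97 at round 0, and RPL28 at -0.18 and -0.38 against -1.54 and -1.48. RPS24 fell by 1.35 and RPL6 by 1.14. Ribosomal protein clones can also capture cDNA of processed pseudogenes, and that was not tested. Among 44 mitochondrial ribosomal features MRPS34 rose (0.58 and 0.88 at round 1, -0.75 and -0.80 at round 0) and 3 fell (9.1% called, median difference -0.19), MRPL51 by 1.72, MRPS22 by 0.89 and MRPS33 by 0.83. For cytosolic ribosomal proteins the unadjusted counts were 4 higher and 16 lower, and the left-out ranges 0 to 1 higher and 0 to 2 lower. For mitochondrial ones the unadjusted counts were 1 higher and 11 lower, and the left-out ranges 0 to 1 higher and 1 lower.

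Splicing factors and hnRNPs were called lower more often than higher, with 16 of 71 features lower and 1 higher (23.9%). Of all features 13.3% were called, 7.87% lower and 5.40% higher. The median difference of the list was -0.32. The median was -0.29 to -0.34 under the other scalings, after subtracting the median of all features where arrays were not centred. SRSF7 stood at -0.72 and -1.17 at round 1 and at 0.89 and 1.03 at round 0, and HNRNPA2B1 at -1.60 and -1.44 against 0.20 and 0.20. The SR protein SRSF1 (-1.51), HNRNPU (-1.61), which binds nuclear RNA and chromatin, the branch-site factor SF3B1 (-1.56) and SFPQ (-1.41), of paraspeckles, were lower too, the last 3 of these genes each having other features that were not called. PRPF31, of the tri-snRNP, was higher, at 1.71 and 1.54 at round 1 and -0.42 and -0.31 at round 0. The count of 16 became 2 to 9 when 1 RNA or that Cy3 array was left out, with 1 to 3 higher. On Cy5 arrays 2 were lower and 1 higher, and on Cy3 arrays 18 were lower and 4 higher. Over all features, 103 were lower and 104 higher of 4818 on Cy5 arrays. On Cy3 arrays 603 were lower and 406 higher of 4936.

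Other RNA and chromatin genes had smaller counts. Of 54 translation factor features 2 were higher, PABPC4 (2.42), a poly(A)-binding protein, and EIF4H (2.30), and 4 lower (11.1%, median difference -0.10), with EIF4G3 at -1.26 and EIF2S2 at -1.20. Of 61 histone and chromatin features 3 were higher and 5 lower (13.1%, median difference -0.22). NCL, nucleolin, stood at -2.28 and -2.50 at round 1 and at -0.28 and -0.29 at round 0, and HMGA1, which bends AT-rich DNA, at -0.08 and 1.16 against -2.20 and -2.51. Cell cycle genes had 1 higher, CDK3 (1.49), and 1 lower, CDK9 (-1.56), among 69 features (2.9%, median difference 0.12). CDK9 acts in transcription elongation rather than in the cycle. For translation factors the unadjusted counts were 7 higher and 9 lower, and the left-out ranges 0 to 3 higher and 0 to 2 lower. For histones and chromatin the unadjusted counts were 6 higher and 14 lower, and the left-out ranges 0 higher and 0 to 2 lower. For the cell cycle the unadjusted counts were 9 higher and 5 lower, and the left-out ranges 0 to 1 higher and 0 to 1 lower.

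Protein folding and turnover had calls in both directions. Of the 69 features in the chaperone list 6 were higher and 9 lower (21.7%, beside 13.3% of all features, median difference -0.11). The 6 include HSPG2 (1.14), which is a matrix proteoglycan rather than a chaperone and is also counted in the matrix list. HSPD1, the mitochondrial chaperonin, stood at 2.73 and 2.63 at round 1 and at -0.10 and -0.11 at round 0. The round 1, replicate K arrays of HSPD1 were far apart, at 0.65 with kidney in Cy5 and 4.60 in Cy3. DNAJC24 stood at -0.74 and -1.16 at round 1 and at 0.57 and 0.53 at round 0. The chaperonin subunits CCT2 and CCT8 fell by 1.09 and 1.13. Of 109 features of the proteasome and ubiquitin pathway 10 were higher and 11 lower (19.3%, median difference -0.09). After USP19, the deubiquitinase USP9X rose by 2.36 in a feature that both Cy5 arrays of round 1 lacked, and its other features differed by -0.09 and -0.50 without a call. USP2, another deubiquitinase, was at -0.37 and -0.31 at round 1 and at 1.70 and 2.06 at round 0. Both called features of the proteasomal ATPase PSMC2 were lower, by 1.26 and 1.05. For chaperones the unadjusted counts were 14 higher and 16 lower, and the left-out ranges 1 to 5 higher and 1 to 2 lower. For the proteasome and ubiquitin pathway the unadjusted counts were 17 higher and 18 lower, and the left-out ranges 1 to 6 higher and 1 to 4 lower.

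Immediate early and stress genes were called lower in 12 and higher in 3 of 81 features (18.5%, beside 13.3% of all features). Their median difference of -0.03 was like that of all features. Beside FOSB, STC1, PERP and HSPB1, the growth arrest gene GADD45A fell by 2.63, DDIT4, an inhibitor of mTORC1, by 1.74, the phosphatase DUSP1 by 1.51, and the zinc-finger factors KLF2 and EGR1 by 1.43 and 1.38. BTG1, an antiproliferative protein, was higher, at -0.14 and 0.34 at round 1 and -1.76 and -1.91 at round 0, as was the GTPase RHOB by 2.03. RHOB has a spot in a run of whole numbers that ends the round 1, replicate 1, Cy3 column, and the count of features called became 736 when that run was dropped. Leaving out 1 RNA or that Cy3 array gave 4 to 8 calls lower and 1 to 3 higher.

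Actin cytoskeleton genes were called higher in 9 and lower in 3 of 58 features (20.7%, beside 13.3% of all features). Their median difference was 0.10. After CFL1 and MARCKS came the focal adhesion protein ZYX (2.03), the tropomyosin TPM3 (1.69) and TAGLN2 (1.60). The tropomyosins TPM1 and TPM2 fell by 1.06 and 1.05, TPM1 being at -2.52 and -2.71 at round 1 and at -1.34 and -1.77 at round 0. Leaving out 1 RNA or that Cy3 array gave 2 to 7 calls higher and 0 or 1 lower.

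Extracellular matrix and integrin features were called in 19 of 63 cases, 8 higher and 11 lower (30.2%, beside 13.3% of all features, median difference 0.03). The 30.2% is the highest share among the lists with more than 10 features. FMOD, CD44 and COL6A1 led upward. TNC, tenascin C, stood at -2.62 and -3.04 at round 1 and at -1.19 and -1.29 at round 0, and another TNC feature differed by 1.92 without a call (adjusted p = 0.391), which turned the mean over both features to 0.17. The integrins ITGB1 and ITGAV fell by 1.27 and 1.17. The laminins LAMB1 and LAMA4 fell by 1.31 and 1.11. Leaving out 1 RNA or that Cy3 array gave 1 to 3 calls higher and 0 to 8 lower.

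Transport and signalling families were near the share of all features. Solute carriers had 5 higher and 6 lower of 78 (14.1%, median difference 0.02). The vesicular glutamate transporter SLC17A7 stood at 0.08 and 0.05 at round 1 and at -2.43 and -2.32 at round 0, and SLC4A9, a bicarbonate transporter of intercalated cells, rose by 1.61. SLC43A1, an amino acid transporter, fell by 1.81. Pumps, channels and aquaporins had 4 higher and 2 lower of 55 (10.9%, median difference -0.04), with ABCC2, an apical organic anion exporter, at 1.15 and 0.91 at round 1 and at 3.20 and 3.28 at round 0. For solute carriers the unadjusted counts were 13 higher and 11 lower, and the left-out ranges 1 to 3 higher and 0 to 4 lower. For pumps and channels the unadjusted counts were 12 higher and 11 lower, and the left-out ranges 0 to 3 higher and 1 to 4 lower.

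ABCD3, of the peroxisomal membrane, and ATP6V1B2, of the proton pump, rose, ABCD3 being at 3.19 and 3.07 at round 1 and at 1.72 and 1.54 at round 0, and the potassium channel KCNJ8 fell by 1.85. Small GTPases and their regulators had 5 higher and 6 lower of 119 (9.2%, median difference -0.16), with RAC1 higher by 2.29 in 1 of 3 features. Redox and detoxification genes had 0 higher and 4 lower of 50 (8.0%, median difference -0.16), with 4 higher and 8 lower at unadjusted p under 0.05. The aldose reductase AKR1B1 was the largest of them after GPX3, at -0.84 and -1.89 at round 1 and at 0.36 and 0.43 at round 0. For small GTPases the unadjusted counts were 16 higher and 21 lower, and the left-out ranges 1 to 4 higher and 1 to 4 lower. For redox genes the left-out ranges were 0 higher and 1 to 3 lower.

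**Figure D5:**
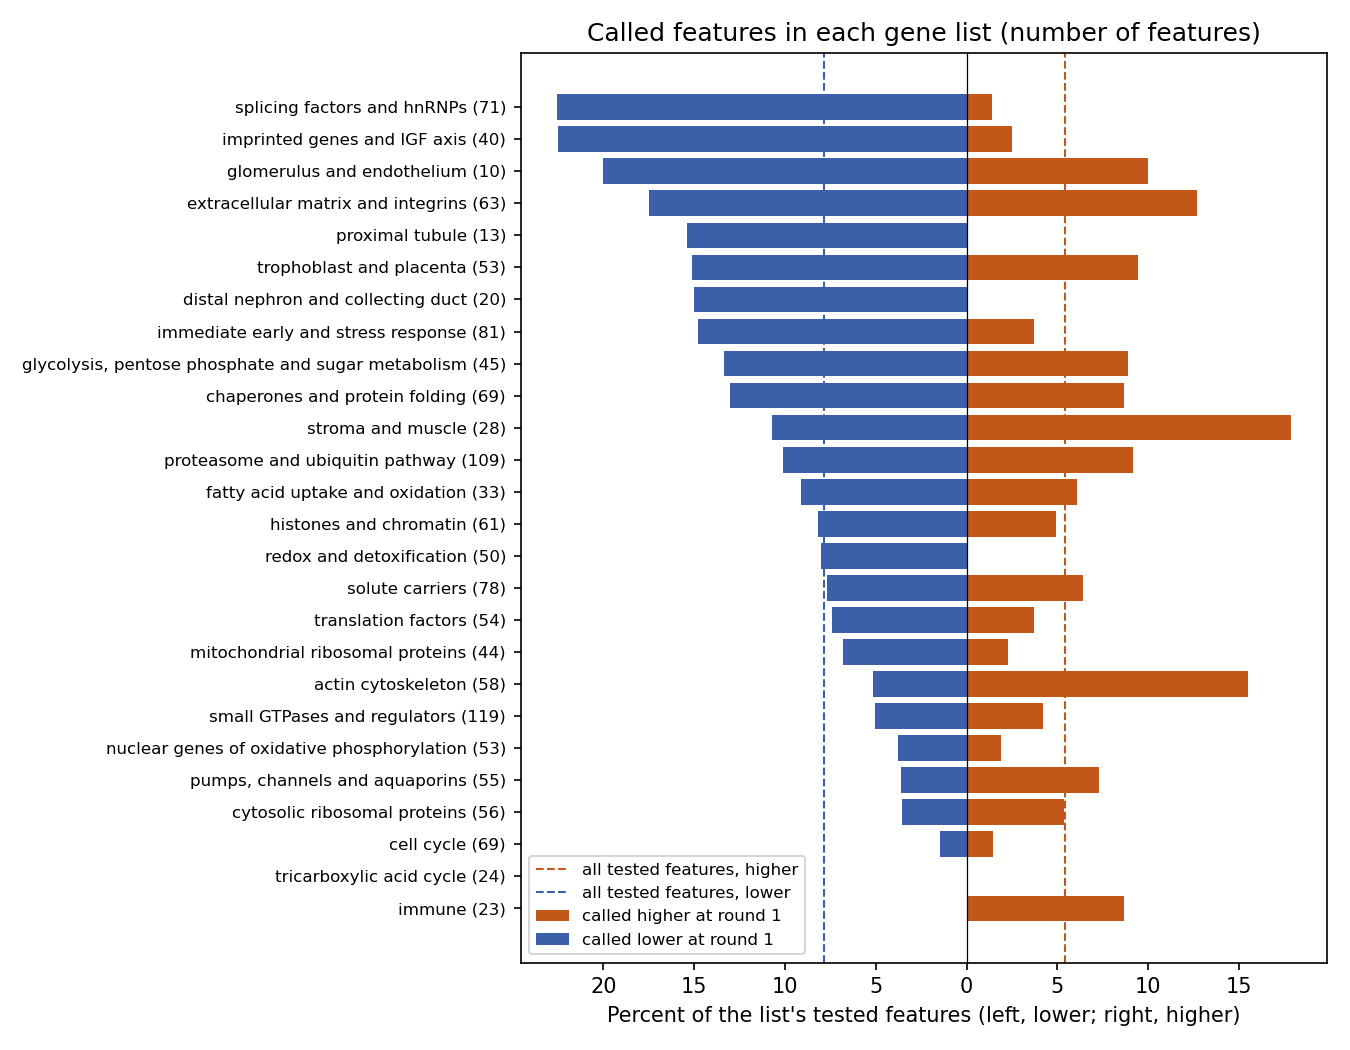
Percent of the tested features of each gene list that were called lower (bars to the left) and higher (bars to the right) at round 1, with the number of features in brackets. Dashed lines mark the shares over all 5537 features, 7.87% lower and 5.40% higher. Splicing factors and imprinted genes reach farthest to the left, stroma and actin cytoskeleton farthest to the right, and the tricarboxylic acid cycle has no bar.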

How the data were processed

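The deposited series table holds, for 15 arrays, log2 ratios of the channels as the authors made them; the log base is inferred from the values. The Cy3 column of round 1 replicate 1 is called a score, because its deposited numbers end in a run of 69 whole numbers after 1017 missing spots. How the images, background and normalization were handled is not given in the sources used here. Values beyond 10 in size were dropped, Cy3-kidney arrays turned, arrays centred on the median of listed features, and duplicate spots and dye swaps averaged. The platform annotation gave 5598 features 1 symbol, 95 several and 2755 none; 5591 matched a current gene table. Tests used limma 3.58.1 in R 4.3.3 on the 5537 listed features measured in all 8 RNAs of the 4 rounds, with 4 residual and 2.4 prior degrees of freedom and Benjamini-Hochberg adjustment over all of them.

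The comparison and the 27 gene lists were chosen with earlier results of these data known. Named were the 15 largest called changes each way without overlap, with other features of those genes; up to 10 genes each way with several calls in 1 direction; the 2 largest called each way per list; and the 10 kept features farthest from 0. Further list members and the 9 genes called both ways were named after their values were seen. Sequences and protein lengths were not analysed here.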

Additional observations from a re-analysis of the deposited data

How the results depend on the processing

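The count of 735 called features became 2 with rounds 1 and 0 fitted alone, 1868 without centring (39 higher, 1829 lower), 207 on Cy5 arrays alone and 1289 with all 16 arrays, a dye term and RNA as a random block. Without centring the median of all differences was -1.04, and changes are reported relative to it. Leaving out 1 RNA gave 112 to 320, and leaving out the round 1, replicate 1, Cy3 array gave 346. The count was 629 with the replicate block. The deviations of same-numbered RNAs from their round means correlated at -0.006 over features. With 2 RNAs per round this cannot show whether the numbers mark a shared source. The count was 575 of 4360 with features averaged per gene and 819 of 3217 with both spots measured on all 8 arrays (260 higher, 559 lower). It was 707 to 794 with a limit of 8, a robust variance model, quantile normalization or scaling to 1 median absolute deviation. With features of no listed gene included it was 763 of 8007 (9.5%), and 532 of these were among the 735 with the same direction. Of alternatives chosen after seeing the data, dropping the run of whole numbers gave 736 and centring within 32 runs of 264 features 760. Averaged per gene, with their other features, IKZF3 was at -0.65, PGLS at -1.77, TCF7L1 at -1.23, TNC at 0.17 and ARHGAP17 at 0.54, each opposite to the value of 1 of its features. Among 26 lists the median difference changed sign under another scaling in 9, such as proximal tubule, stroma and immediate early genes, but not splicing factors or imprinted genes. Beside the stated constructions the causes were not tested. No intensities were used, so dim spots could not be filtered.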

Other observations

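The round 1, replicate 1, Cy3 column ended differently from the other columns. After its last ratio 1017 spots were missing, and the final 69 spots held whole numbers, 52 of them beyond 10 in size and 17 within it. The 69 spots touch 25 tested features, of which 1, RHOB, was called.

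The share of called features varied along the order of the features on the array. Over 32 consecutive runs of 264 features, 1.95% to 14.6% of the tested features in a run were called lower and 2.72% to 9.63% higher, and the median difference lay between -0.22 and 0.28.

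Of the 229 features whose difference exceeded 2 in size, 142 were called and 87 were not. The smallest difference that was called had a size of 0.75.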
